A study of Mus musculus with 15 samples.

Results

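The proteasome genes of mouse cerebral vessels were taken as all genes whose symbol reads Psma to Psmg followed by a digit. This rule found 53 of the 22526 gene symbols in the expression table. A mean of at least 1 FPKM (a fragment count per length of transcript and per depth of the library) over all 15 libraries was required for testing, and 49 members passed. The other 4 were near 0: Psmb11, a core subunit known from the thymus, averaged 0.0206 FPKM, and the pseudogenes Psmb6-ps, Psmb6-ps2 and Psmb7-ps2 averaged 0.0348, 0.0185 and 0.163 FPKM. One tested gene, Psmc3ip, matches the name but is not a proteasome subunit; it is a partner of the meiotic recombinases and averaged 1.11 FPKM.

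RNA was sequenced in bulk from vessels prepared from the brains of wild-type C57BL/6 mice aged 8 months, in 3 groups of 5 libraries. LH3-AL mice had received, by stereotactic injection, an adeno-associated virus (AAV) that carries LH3, the collagen-modifying enzyme of the Plod3 gene, and were then given angiotensin II (AngII) together with L-NAME, which blocks nitric oxide synthases. GFP-AL mice had received an AAV that carries green fluorescent protein and the same drugs. GFP-Veh mice had received the GFP virus and saline. Every group therefore carries a virus and an injection, and no group received the LH3 virus with saline. The sources used here give no promoter of the virus, dose or duration of the drugs, and the labels do not say that each library came from its own mouse, so p-values measure the spread between these libraries.

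The proteasome is the main protease of the cytosol and nucleus and degrades proteins that carry ubiquitin chains. Its core particle is a barrel of alpha and beta rings, in which 3 kinds of beta subunit cut peptide bonds; a regulatory particle on the end of the barrel has a base of ATPases, which unfold and push in the substrate, and a lid, which removes ubiquitin. Interferons and other inflammatory signals are known to replace the catalytic subunits Psmb6, Psmb7 and Psmb5 by Psmb9, Psmb10 and Psmb8, which makes the immunoproteasome, and to raise the activator PA28, encoded by Psme1 and Psme2; the resulting peptides are known to suit loading onto MHC class I. The transcription factor Nrf1, encoded by Nfe2l1, is known to raise the standard subunits together when proteasome activity falls short.

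The promoters of the catalytic genes are shown because the results set each inducible gene beside its constitutive counterpart. Both factors known for these genes, Nrf1-type factors and interferon-activated factors, act through short DNA words. RefSeq promoter windows (GRCm38.p6, 300 bases on the gene's own strand that span its start and lie mostly before it) were held for 42 of the 53 members, and Psmb7 is not shown. Capitals mark the words searched on both strands: the antioxidant response element TGACNNNGC, the interferon-stimulated response element, the gamma-activated site TTCNNNGAA, the CCAAT box and the ETS-type motif CCGGAAG.
Psmb9 (chr17:34187281-34187580, minus strand): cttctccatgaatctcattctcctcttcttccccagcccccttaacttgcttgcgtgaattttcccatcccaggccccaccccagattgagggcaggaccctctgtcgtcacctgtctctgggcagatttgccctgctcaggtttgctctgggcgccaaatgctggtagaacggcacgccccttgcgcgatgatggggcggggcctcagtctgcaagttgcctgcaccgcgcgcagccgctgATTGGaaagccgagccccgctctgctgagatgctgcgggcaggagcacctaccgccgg
Psmb6 (chr11:70525107-70525406, plus strand): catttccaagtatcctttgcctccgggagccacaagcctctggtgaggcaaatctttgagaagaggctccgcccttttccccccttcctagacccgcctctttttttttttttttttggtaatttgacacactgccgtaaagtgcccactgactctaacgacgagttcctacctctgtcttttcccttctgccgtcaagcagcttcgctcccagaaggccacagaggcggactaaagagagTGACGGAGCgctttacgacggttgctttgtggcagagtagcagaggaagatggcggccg
Psmb10 (chr8:105938343-105938642, minus strand): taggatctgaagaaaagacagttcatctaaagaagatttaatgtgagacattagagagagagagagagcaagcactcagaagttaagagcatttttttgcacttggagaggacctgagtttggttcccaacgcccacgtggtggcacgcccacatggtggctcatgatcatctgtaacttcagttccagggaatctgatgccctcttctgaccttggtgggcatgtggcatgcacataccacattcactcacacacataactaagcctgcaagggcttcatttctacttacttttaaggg
Psmb8 (chr17:34197945-34198244, plus strand): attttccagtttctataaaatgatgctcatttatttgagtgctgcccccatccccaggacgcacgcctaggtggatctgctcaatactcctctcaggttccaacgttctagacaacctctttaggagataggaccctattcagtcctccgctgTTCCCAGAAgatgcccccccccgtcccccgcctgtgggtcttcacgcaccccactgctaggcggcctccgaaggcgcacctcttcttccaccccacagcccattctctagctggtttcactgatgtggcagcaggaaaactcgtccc
Psmb5 (chr14:54617946-54618245, minus strand): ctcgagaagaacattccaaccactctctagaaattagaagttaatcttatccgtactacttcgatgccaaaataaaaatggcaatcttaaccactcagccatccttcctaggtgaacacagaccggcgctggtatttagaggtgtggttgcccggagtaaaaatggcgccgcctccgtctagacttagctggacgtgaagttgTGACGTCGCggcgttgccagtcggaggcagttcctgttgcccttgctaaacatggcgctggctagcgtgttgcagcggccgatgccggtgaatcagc
The windows of Psmb6 and Psmb5 each held 1 antioxidant response element, at base 242 and base 204 from the 5′ end, and none of the other words. That of Psmb9 held 1 CCAAT box, on the opposite strand, at base 243. That of Psmb8 held 1 gamma-activated site at base 154, and that of Psmb10 held none of the 5 words.

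Over the 42 members with a window, the antioxidant response element stood in 6 (14.3%), against 14.0% of the 27025 genes with a window. The interferon-stimulated response element stood in 5 (11.9%), Psmb3, Psmd4, Psmd9, Psme1 and Psmg4, against 3.99% of all genes. The gamma-activated site stood in 3 (7.14%), Psmb8, Psmd2 and Psmg1, against 9.55%. The CCAAT box stood in 15 (35.7%), against 41.1%. The ETS-type motif also stood in 15 (35.7%), against 9.93% of all genes; among these were Psma6 of the alpha ring, Psmc1, Psmc2, Psmc6, Psmd2 and Psmd4 of the base, and Psmd6, Psmd11, Psmd12 and Psmd13 of the lid, but none of the beta genes. These matches describe letters in a window and are not binding sites.

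As a check of the labels, Plod3 averaged 21.6 ± 1.46 FPKM in LH3-AL libraries, 13.9 ± 1.09 FPKM in GFP-AL libraries and 16.8 ± 0.621 FPKM in GFP-Veh libraries (SD, n = 5 each). The estimated depth, read from the step size of low values, spanned 18 to 31.6 M fragments in LH3-AL libraries, 21.1 to 27.8 M fragments in GFP-AL libraries and 13.5 to 29.7 M fragments in GFP-Veh libraries. The top of the GFP-Veh range was GFP-Veh 5 alone. GFP-Veh 1, GFP-Veh 2, GFP-Veh 3 and GFP-Veh 4 all lay below every LH3-AL and GFP-AL library. Estimated depth therefore differed with the group in both comparisons with GFP-Veh, and its part in the results was not tested. Multiples of a depth fit the same steps, so the smallest depth that fitted nearly as well as the best was taken. Whether the difference lies in the libraries or in the estimate was not tested. Libraries GFP-AL 2, GFP-AL 3 and GFP-Veh 2 stood apart: the median deviation of tested genes with up to 1500 bases of exon from their mean over all libraries was 0.25, 0.14 and 0.36 in these 3 on the log2(FPKM + 1) scale, against -0.16 to 0.02 in the other 12, and that of genes with over 5000 bases was -0.18, -0.24 and -0.10, against -0.06 to 0.10. Several marker lists moved with the groups too. Of all tested genes 10.8% were called higher and 17.7% lower in GFP-AL against GFP-Veh. The shares in LH3-AL against GFP-AL were 17% higher and 11.4% lower. A count near these shares does not set a list apart from all genes. Of 10 microglia and macrophage markers, 6 were called higher and 0 lower in GFP-AL than in GFP-Veh, and 0 higher and 7 lower in LH3-AL than in GFP-AL; their summed level was 263 to 310 FPKM in LH3-AL, 599 to 1030 FPKM in GFP-AL and 185 to 454 FPKM in GFP-Veh libraries. Summed leukocyte markers spanned 38.7 to 55.7 FPKM in LH3-AL, 93.5 to 661 FPKM in GFP-AL and 76.4 to 203 FPKM in GFP-Veh libraries. Of these 10 markers S100a9 and S100a8 had the highest means over all libraries, at 99.2 and 31.6 FPKM. Only 5 were tested. In GFP-AL against GFP-Veh 2 of them were higher and 1, Cd79a, was lower (-0.73 ± 0.21, adjusted p = 0.0185). In LH3-AL against GFP-AL 0 were higher and 4 lower. Summed endothelial markers, which mark the labelled tissue, spanned 2362 to 3864 FPKM in LH3-AL, 3649 to 5592 FPKM in GFP-AL and 2628 to 3632 FPKM in GFP-Veh libraries. The endothelial list went both ways: of 10 markers 4 were higher and 2 lower in GFP-AL than in GFP-Veh, the lower ones being Tek (-0.95 ± 0.20, adjusted p = 0.00285) and Kdr (-0.72 ± 0.23, adjusted p = 0.0318), and 1, Tek, was higher and 3 lower in LH3-AL than in GFP-AL. Of 6 pericyte markers 3 were lower in GFP-AL than in GFP-Veh and 2 higher in LH3-AL than in GFP-AL, with sums of 1176 to 1500.8 FPKM in LH3-AL, 726 to 1232 FPKM in GFP-AL and 1252 to 1572 FPKM in GFP-Veh libraries. Of 6 oligodendrocyte markers 4 were lower in GFP-AL than in GFP-Veh and 2 higher in LH3-AL than in GFP-AL. Of 6 red cell markers 6 were higher in GFP-AL than in GFP-Veh, and of 6 choroid plexus markers 5 were lower there and 4 higher in LH3-AL than in GFP-AL. No marker of these 7 lists was at 0 in any library, and the lowest was Ms4a1 of B cells at 0.00991 FPKM. The part of these shifts in the results that follow was not tested, and in bulk samples fewer cells of a type cannot be told apart from less RNA per cell.

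Levels of the 31 standard subunits, the constitutive core, base and lid, differed widely. Per length and over all 15 libraries, the beta ring gene Psmb1 was highest at 72.7 FPKM, followed by the lid gene Psmd7 at 68.1, the ATPase gene Psmc1 at 68.00 and the alpha ring gene Psma2 at 63.6 FPKM. The lowest were Psma3 at 6.11, Psmd11 at 6.34 and Psmd13 at 8.25 FPKM. In the immunoproteasome Psmb10 averaged 28.7 FPKM, above its counterpart Psmb7 at 13.7 FPKM, whereas Psmb8 (10.6 FPKM) lay below Psmb5 (31.6 FPKM) and Psmb9 (2.54 FPKM) below Psmb6 (24.1 FPKM). Assembly chaperones, which help build the particle and leave it, lay between 1.86 FPKM for Psmg3 and 12.3 FPKM for Psmg2. The plot of mean levels by gene shows this order.

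**Figure D1:**
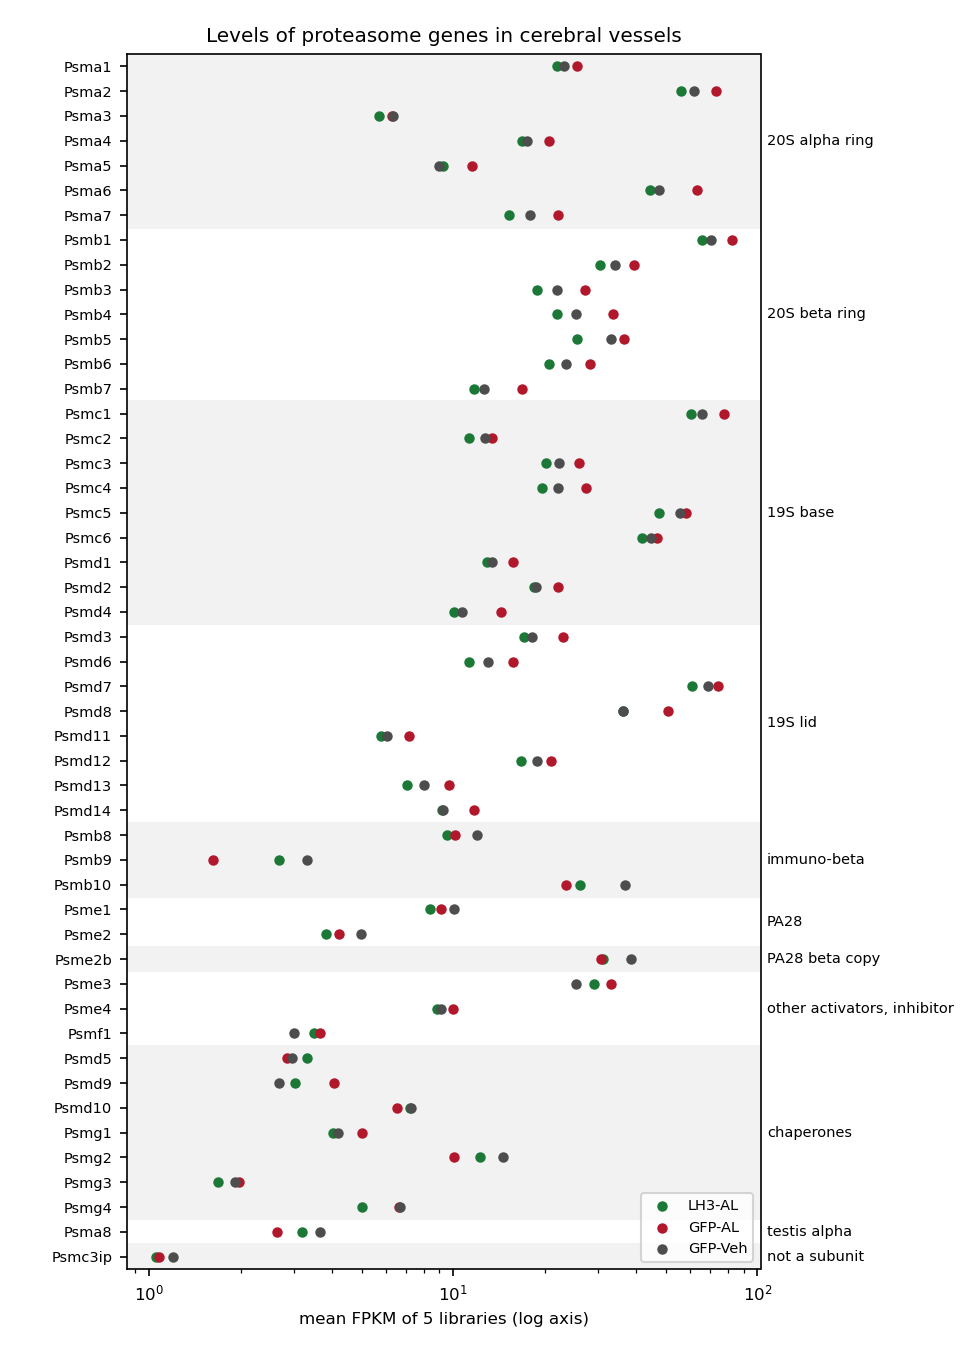
Mean FPKM of 5 libraries (log axis) for each tested member, grouped by its place in the particle, with 1 point each for LH3-AL, GFP-AL and GFP-Veh. For most core, base and lid genes the GFP-AL point lies furthest right, while for Psmb9 it lies furthest left, at 1.62 ± 0.368 FPKM.

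The first comparison, GFP-AL against GFP-Veh, asks what the drugs changed under the same virus. Of the 49 members 9 were called higher (18.4%), at a Benjamini-Hochberg adjusted p under 0.05 from limma over all 13082 genes tested, against 10.8% of all tested genes; 3 were called lower (6.12%), against 17.7% of all. A log2 fold change above 0 was seen in 37 of 49 members (75.5%), against 39.5% of all tested genes. Among the 31 standard subunits 7 were called higher and 0 lower, 30 lay above 0, and the median log2 fold change was 0.26, against -0.09 over all tested genes. Under quantile normalization 28 of the 31 lay above 0, and under median-of-ratios scaling all 31 did.

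Core, base and lid had like medians. The alpha ring, the outer rings that gate the barrel, had 1 of 7 members called higher, Psma6 (0.41 ± 0.14, adjusted p = 0.0344), and a median log2 fold change of 0.26; leaving out GFP-AL 3, GFP-AL 4, GFP-Veh 1, GFP-Veh 3, GFP-Veh 4 or GFP-Veh 5 put the adjusted p of Psma6 between 0.0585 and 0.0931. The constitutive beta ring had 2 of 7, Psmb4 and Psmb7, with a median of 0.28. The base had 1 of 9, Psmd4, which binds ubiquitin chains (0.41 ± 0.13, adjusted p = 0.0294), with a median of 0.23; leaving out GFP-AL 2, GFP-AL 3, GFP-Veh 1, GFP-Veh 3, GFP-Veh 4 or GFP-Veh 5 put its adjusted p between 0.0546 and 0.0751. The lid had 3 of 8, Psmd3, Psmd8 and Psmd14, with a median of 0.26. Over all tested genes 10.8% were called higher, and the 1 of 7 in the alpha ring and 1 of 9 in the base are near that share. No member of these groups was called lower. Log2 fold changes ran from -0.01 for Psma3 to 0.41 for Psma6 in the core, from 0.06 to 0.41 in the base and from 0.12 to 0.48 in the lid, and differences between these groups of genes were not tested.

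The count of higher members rests on single libraries. Leaving out GFP-Veh 2 raised it to 26, of which 23 were standard subunits (11 of 14 in the core, 6 of 9 in the base and 6 of 8 in the lid), while 13.6% of all tested genes were called higher. Leaving out GFP-AL 3, GFP-Veh 1 or GFP-Veh 3 lowered it to 5, with 8.93 to 9.37% of all tested genes called higher. Without GFP-Veh 4 it was 4, with 8.78% of all, and without GFP-Veh 5 it was 3, with 8.56%. Without the 3 libraries that stand apart it was 24, with 22 standard subunits, a median of 0.26 for the standard subunits and 11.4% of all tested genes called higher. The count of lower members was 2 without those 3 libraries and 1 without GFP-AL 3 alone, where 14.7% and 13.7% of all tested genes were called lower. Median-of-ratios scaling gave 15 members higher and 2 lower, with 14.1% of all tested genes higher and 13.1% lower.

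Psmd8, a lid subunit, had 34.9, 34.3, 36.8, 35.8 and 38.7 FPKM in LH3-AL libraries 1 to 5, 48.5, 61.3, 53.8, 46.02 and 43.5 FPKM in GFP-AL libraries and 34.04, 48.4, 34.8, 33.9 and 29.9 FPKM in GFP-Veh libraries. GFP-Veh 2 was the high library of its group and reached into the GFP-AL range, and the other 4 GFP-Veh libraries lay below every GFP-AL library. Psmd8 was higher in GFP-AL than in GFP-Veh, with a log2 fold change of 0.48 ± 0.12 (adjusted p = 0.00796). This is the largest increase among the members called.

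Psmd14, the lid enzyme that cuts ubiquitin chains off the substrate, had 9.64, 8.45, 9.003, 8.64 and 10.05 FPKM in LH3-AL, 11.03, 10.7, 13.3, 11.99 and 11.6 FPKM in GFP-AL and 9.05, 11.5, 9.18, 8.19 and 8.25 FPKM in GFP-Veh libraries. Only GFP-Veh 2 of its group reached the GFP-AL range. The log2 fold change of GFP-AL against GFP-Veh was 0.32 ± 0.09 (adjusted p = 0.0191). Without GFP-Veh 4 the adjusted p was 0.0558, and without GFP-Veh 5 it was 0.05401.

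Psmd3, another lid subunit, had 17.5, 19.3, 15.5, 16.5 and 16.6 FPKM in LH3-AL, 22.03, 28.9, 22.8, 19.97 and 21.1 FPKM in GFP-AL and 17.4, 21.5, 15.4, 18.3 and 18.5 FPKM in GFP-Veh libraries. GFP-AL 2 was the highest of all, and GFP-Veh 2 was the only GFP-Veh library within the GFP-AL range. It was higher in GFP-AL, with a log2 fold change of 0.31 ± 0.11 (adjusted p = 0.0383). Leaving out any one of GFP-AL 2, GFP-AL 3, GFP-Veh 1, GFP-Veh 3, GFP-Veh 4 or GFP-Veh 5 put the adjusted p between 0.0631 and 0.0975.

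Psmb4, a beta ring subunit without catalytic activity, had 22.2, 23.3, 21.1, 19.8 and 23.7 FPKM in LH3-AL, 29.00, 40.8, 39.99, 28.6 and 29.6 FPKM in GFP-AL and 22.9, 36.6, 23.7, 23.8 and 19.7 FPKM in GFP-Veh libraries. GFP-AL 2 and GFP-AL 3 stood above the rest of their group, and GFP-Veh 2 lay between them and the other GFP-AL libraries. Its log2 fold change in GFP-AL against GFP-Veh was 0.41 ± 0.15 (adjusted p = 0.04999), just under the threshold. Under the 9 single changes of setting or library that ended this call the adjusted p ran from 0.0507 with a pseudocount of 0.1 to 0.131 without GFP-Veh 5.

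Psmd9, a chaperone of base assembly that is not part of the finished particle, had 3.19, 2.797, 3.08, 2.74 and 3.29 FPKM in LH3-AL, 3.71, 4.700, 4.87, 3.27 and 3.75 FPKM in GFP-AL and 2.38, 3.29, 2.75, 2.505 and 2.42 FPKM in GFP-Veh libraries. GFP-AL 4 and GFP-Veh 2 were the libraries in which these groups met. Psmd9 rose in GFP-AL, with a log2 fold change of 0.46 ± 0.10 (adjusted p = 0.00454).

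Psme3, the PA28 gamma activator of the nucleus, had 27.9, 25.8, 30.6, 29.6 and 31.03 FPKM in LH3-AL, 34.8, 26.9, 29.6, 39.4 and 34.2 FPKM in GFP-AL and 25.4, 22.3, 25.8, 26.3 and 26.4 FPKM in GFP-Veh libraries. Every GFP-AL library lay above every GFP-Veh library, and GFP-Veh 2 was the lowest, not the highest, of its group. The log2 fold change of GFP-AL against GFP-Veh was 0.36 ± 0.10 (adjusted p = 0.01395); under quantile normalization it was 0.31 (adjusted p = 0.0535). Psme3 was the only member whose GFP-AL libraries all exceeded the GFP-Veh libraries, which 6.59% of all tested genes did. The other 2 genes beside it, the activator Psme4 (0.13 ± 0.08, adjusted p = 0.244) and the inhibitor Psmf1 (0.19 ± 0.14, adjusted p = 0.347), did not pass the test.

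Psmg2, a chaperone that pairs with Psmg1 to build the alpha ring, had 12.2, 15.97, 10.2, 10.9 and 12.1 FPKM in LH3-AL, 11.1, 12.1, 7.72, 9.63 and 9.62 FPKM in GFP-AL and 14.4, 19.9, 11.6, 13.95 and 13.2 FPKM in GFP-Veh libraries. Libraries numbered 2 were highest in each group, and GFP-AL and GFP-Veh met between GFP-AL 2 and GFP-Veh 3. Psmg2 fell in GFP-AL, with a log2 fold change of -0.49 ± 0.15 (adjusted p = 0.0215). Without GFP-AL 3 the adjusted p was 0.0568, and without the 3 libraries that stand apart it was 0.0597. Its partner Psmg1 did not pass (0.22 ± 0.13, adjusted p = 0.213), so that among 7 chaperones 1 was called higher and 1 lower. Of all tested genes 10.8% were called higher and 17.7% lower, so these counts are near the background.

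**Figure D2:**
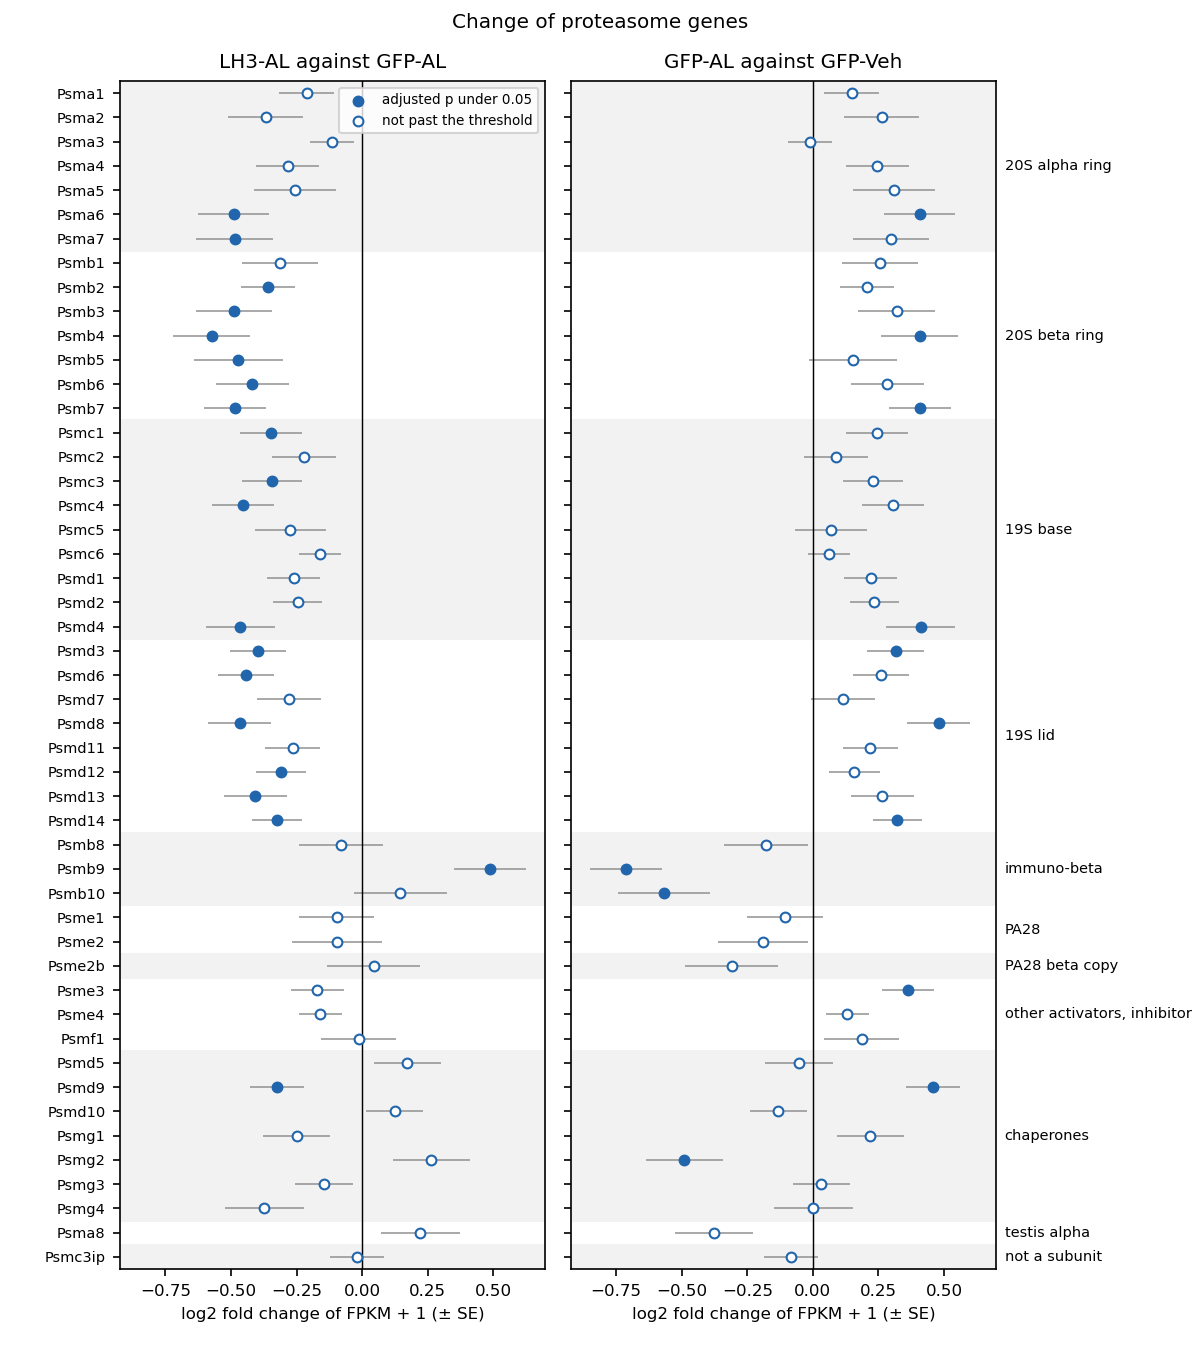
Log2 fold changes of FPKM + 1 with their standard errors for each tested member, in LH3-AL against GFP-AL (left panel) and GFP-AL against GFP-Veh (right panel), with filled points where the limma adjusted p was under 0.05. Core, base and lid genes lie left of 0 in the left panel and, but for Psma3, right of 0 in the right panel, and Psmb9 lies on the opposite side in both; the panels share the GFP-AL libraries.

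Among the 3 catalytic genes of the immunoproteasome 2, Psmb9 and Psmb10, were called lower, and their median log2 fold change was -0.57. All 5 genes with PA28 had a log2 fold change below 0, and 2 of them passed the test. Of all tested genes 39.5% lay above 0 in GFP-AL against GFP-Veh and 17.7% were called lower. The median of the 5 was -0.19 against -0.09 over all tested genes, a difference that was not tested. Without GFP-Veh 2, 4 of the 5 lay below 0. Under median-of-ratios scaling all 5 still lay below 0 and Psmb9 was the only 1 past the test.

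Psmb9, the inducible counterpart of Psmb6, had 2.96, 2.92, 2.35, 2.01 and 3.13 FPKM in LH3-AL libraries, 1.34, 1.97, 1.22, 2.04 and 1.53 FPKM in GFP-AL libraries and 3.41, 3.97, 3.01, 3.92 and 2.25 FPKM in GFP-Veh libraries. Every GFP-AL library lay below every GFP-Veh library, the only such member, against 10.1% of all tested genes; of the LH3-AL libraries only LH3-AL 4 reached down into the GFP-AL range. The means were 2.67 ± 0.473 FPKM in LH3-AL, 1.62 ± 0.368 FPKM in GFP-AL and 3.31 ± 0.711 FPKM in GFP-Veh (SD, n = 5 each).

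Psmb9 fell in GFP-AL against GFP-Veh, with a log2 fold change of -0.71 ± 0.14 (adjusted p = 0.00153), and no library left out in turn ended this call. In the authors' deposited table of GFP-AL against GFP-Veh, Psmb9 was the only member among 1764 genes, with a log2 fold change of -1.03 and a q-value of 0.00375. In LH3-AL against GFP-AL it was the only member called higher, with a log2 fold change of 0.49 ± 0.14 (adjusted p = 0.0169); quantile normalization gave 0.34 with an adjusted p of 0.0830, and array weights gave 0.40 with an adjusted p of 0.0674. An exon of Psmb9 overlaps Tap1, the peptide transporter gene on the opposite strand, and without a stated strand of counting their reads cannot be told apart there. Tap1 itself passed in neither, with 0.23 ± 0.13 (adjusted p = 0.189) in GFP-AL against GFP-Veh and -0.21 ± 0.13 (adjusted p = 0.222) in LH3-AL against GFP-AL.

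Psmb10, the inducible counterpart of Psmb7, had 27.2, 28.7, 23.1, 22.1 and 29.00 FPKM in LH3-AL, 22.6, 27.9, 22.6, 23.7 and 20.2 FPKM in GFP-AL and 29.2, 61.8, 31.3, 33.5 and 27.6 FPKM in GFP-Veh libraries. GFP-Veh 2 stood far above all others, and GFP-AL 2 was the only GFP-AL library inside the GFP-Veh range. The means were 26.03 ± 3.23 FPKM in LH3-AL, 23.4 ± 2.81 FPKM in GFP-AL and 36.7 ± 14.2 FPKM in GFP-Veh (SD, n = 5 each). Psmb10 fell in GFP-AL against GFP-Veh, with a log2 fold change of -0.57 ± 0.18 (adjusted p = 0.02598); the adjusted p was 0.0507 without GFP-AL 3, 0.0542 without GFP-AL 5 and 0.0560 under median-of-ratios scaling. It did not pass in LH3-AL against GFP-AL (0.15 ± 0.18, adjusted p = 0.553).

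Psmb8, the inducible counterpart of Psmb5, had 9.55, 10.6, 8.25, 8.58 and 10.7 FPKM in LH3-AL, 8.16, 11.8, 10.99, 10.1 and 9.71 FPKM in GFP-AL and 9.99, 19.1, 11.6, 9.77 and 9.36 FPKM in GFP-Veh libraries. The groups overlapped, and GFP-Veh 2 alone stood above the rest. Psmb8 did not pass in GFP-AL against GFP-Veh, with a log2 fold change of -0.18 ± 0.16 (adjusted p = 0.421) and a 95% interval of -0.53 to 0.17. Its log2 fold change in LH3-AL against GFP-AL was -0.08 ± 0.16 (adjusted p = 0.729).

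Psme1 and Psme2, the subunits of PA28, overlapped between the groups as well. Psme1 had 8.15, 8.58, 7.53, 8.096 and 9.58 FPKM in LH3-AL, 7.75, 10.1, 9.79, 10.4 and 7.48 FPKM in GFP-AL and 8.54, 15.2, 8.84, 9.65 and 8.07 FPKM in GFP-Veh libraries, with a log2 fold change of -0.11 ± 0.14 (adjusted p = 0.604) in GFP-AL against GFP-Veh. Psme2 had 4.41, 4.46, 3.13, 3.41 and 3.65 FPKM in LH3-AL, 3.09, 6.28, 4.51, 3.55 and 3.697 FPKM in GFP-AL and 4.11, 7.72, 4.74, 4.39 and 3.93 FPKM in GFP-Veh libraries, with a log2 fold change of -0.19 ± 0.17 (adjusted p = 0.426). In both genes GFP-Veh 2 was the highest library, and without it the log2 fold change of Psme1 in GFP-AL against GFP-Veh was 0.04. The log2 fold changes of LH3-AL against GFP-AL were -0.10 ± 0.14 (adjusted p = 0.632) for Psme1 and -0.10 ± 0.17 (adjusted p = 0.695) for Psme2.

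The level of Psme2 is uncertain, because Psme2b is a copy with 99.4% identity over 82.5% of its coding length and the table lists both. Psme2b averaged 31.04 ± 3.85 FPKM in LH3-AL, 30.5 ± 6.85 FPKM in GFP-AL and 38.4 ± 11.1 FPKM in GFP-Veh libraries (SD, n = 5 each), above Psme2 in every group. Its log2 fold change was -0.31 ± 0.18 (adjusted p = 0.203) in GFP-AL against GFP-Veh. Psmb5, Psmc1 and Psmd2 also have a copy elsewhere with at least 95% identity, and 15 tested members share exon sequence with another annotated gene.

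**Figure D3:**
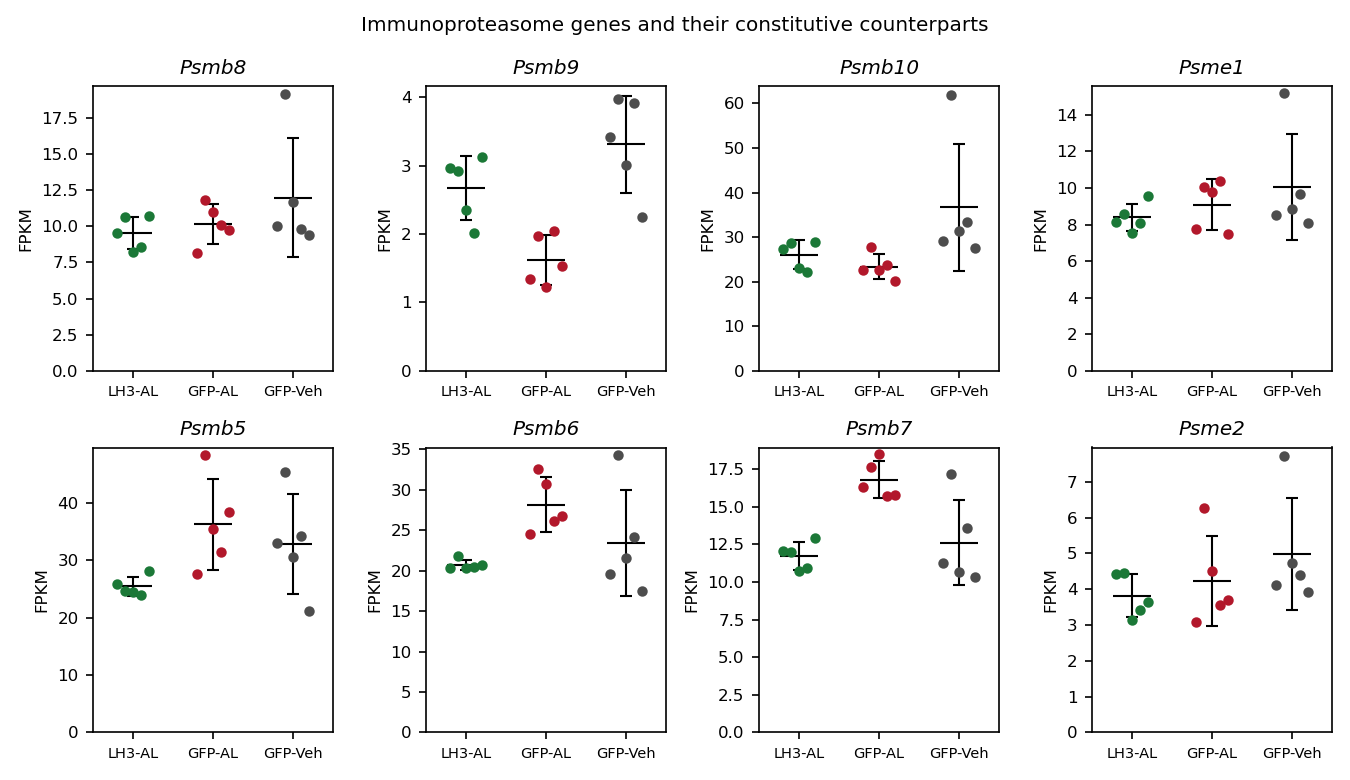
FPKM in each library (points), with the mean and SD of 5 (lines), for the immunoproteasome genes and PA28 and for the constitutive catalytic genes Psmb5, Psmb6 and Psmb7, with axes starting at 0. GFP-AL libraries are low for Psmb9 and high for Psmb7, and the top GFP-Veh point is library 2 in every panel.

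The constitutive counterparts were set beside the inducible genes, and an exchange of subunits was not tested. Psmb6 had 20.3, 21.8, 20.3, 20.5 and 20.7 FPKM in LH3-AL, 24.5, 32.6, 30.7, 26.1 and 26.7 FPKM in GFP-AL and 19.6, 34.4, 21.5, 24.2 and 17.5 FPKM in GFP-Veh libraries. All LH3-AL libraries lay below all GFP-AL libraries, whereas GFP-Veh 2 was above every GFP-AL library. The log2 fold change was 0.28 ± 0.14 (adjusted p = 0.141) in GFP-AL against GFP-Veh and -0.42 ± 0.14 (adjusted p = 0.03698) in LH3-AL against GFP-AL; the first passed without GFP-Veh 2 (0.43, adjusted p = 0.00615), and leaving out any 1 of 7 of the 10 libraries put the adjusted p of the second between 0.0552 and 0.0812.

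Psmb7 had 12.03, 12.02, 10.7, 10.9 and 12.9 FPKM in LH3-AL, 16.3, 17.6, 18.5, 15.7 and 15.8 FPKM in GFP-AL and 11.3, 17.2, 10.7, 13.6 and 10.3 FPKM in GFP-Veh libraries. The LH3-AL libraries all lay below the GFP-AL ones, and GFP-Veh 2 was the only library of its group in the GFP-AL range. It rose in GFP-AL against GFP-Veh, with a log2 fold change of 0.41 ± 0.12 (adjusted p = 0.0178), and fell in LH3-AL against GFP-AL, with a log2 fold change of -0.48 ± 0.12 (adjusted p = 0.00784); without GFP-Veh 5 the adjusted p of the rise was 0.0527.

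Psmb5 had 25.9, 24.8, 24.5, 23.97 and 28.2 FPKM in LH3-AL, 27.7, 48.4, 35.5, 31.5 and 38.4 FPKM in GFP-AL and 32.98, 45.4, 30.7, 34.3 and 21.1 FPKM in GFP-Veh libraries. GFP-AL 1 lay within the LH3-AL range, and GFP-Veh libraries spread over both other groups. In GFP-AL against GFP-Veh its log2 fold change was 0.15 ± 0.17 (adjusted p = 0.525), and in LH3-AL against GFP-AL it was -0.47 ± 0.17 (adjusted p = 0.0481), a call that leaving out GFP-AL 2 ended (-0.36, adjusted p = 0.114), as leaving out 7 other libraries did.

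Within a library the share of the inducible gene in each catalytic pair does not depend on how that library is scaled, and it is given as a description with no test. It can still move with the length trend of a library, because the exon lengths of a pair differ. They were 3660 bases for Psmb9 and 1872 for Psmb6, 1705 for Psmb10 and 3421 for Psmb7, and 3381 for Psmb8 and 899 for Psmb5. The part of length in these shares was not tested. Psmb9 made up 11.4 ± 1.73% of the summed FPKM of Psmb9 and Psmb6 in LH3-AL, 5.48 ± 1.22% in GFP-AL and 12.6 ± 1.84% in GFP-Veh (SD, n = 5 each). The GFP-AL libraries, at 3.83 to 7.24%, all lay below the LH3-AL libraries at 8.94 to 13.1% and the GFP-Veh libraries at 10.4 to 14.8%. GFP-Veh 2 had the lowest Psmb9 share of its group, although it was high for both genes.

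Psmb10 made up 68.9 ± 1.34% of the Psmb10 and Psmb7 sum in LH3-AL, 58.1 ± 2.63% in GFP-AL and 73.8 ± 2.80% in GFP-Veh (SD, n = 5 each). Here the 3 groups did not overlap, with 66.9 to 70.5% in LH3-AL, 55.0 to 61.3% in GFP-AL and 71.1 to 78.3% in GFP-Veh. Psmb8 made up 27.2 ± 1.78% of the Psmb8 and Psmb5 sum in LH3-AL, 22.1 ± 2.07% in GFP-AL and 26.7 ± 3.799% in GFP-Veh. Its LH3-AL range of 25.2 to 30.0% lay above the GFP-AL range of 19.7 to 24.2%, and GFP-Veh, at 22.2 to 30.7%, overlapped both. These are shares of RNA, not of subunits in the particle.

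**Figure D4:**
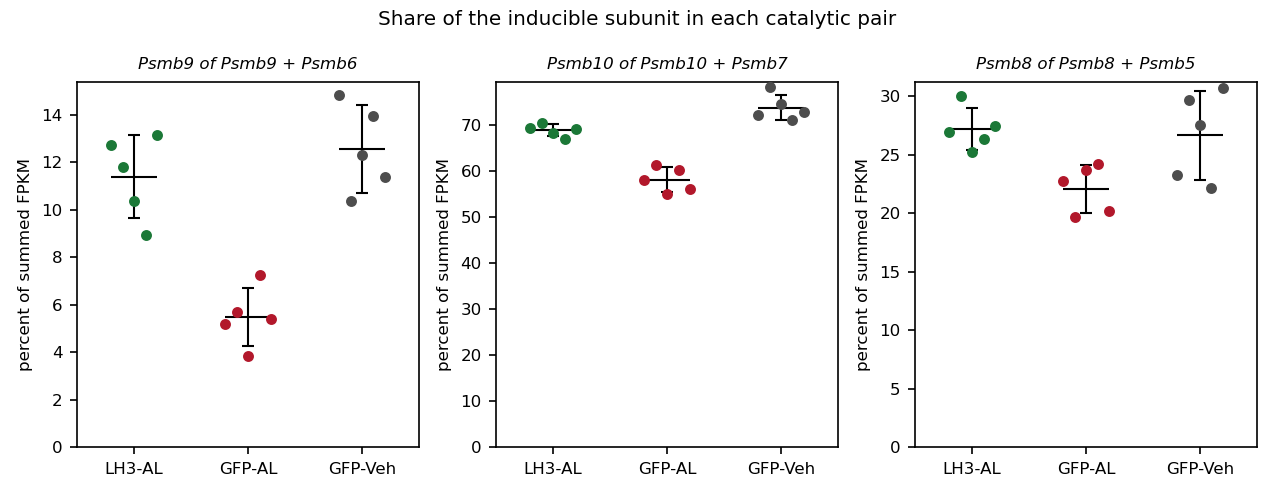
Percent of the summed FPKM of each catalytic pair that came from the inducible gene, in each library (points) with the mean and SD of 5 (lines), for LH3-AL, GFP-AL and GFP-Veh. The 5 GFP-AL libraries are the lowest in the Psmb9 and Psmb10 pairs, at 3.83 to 7.24% and 55.0 to 61.3%.

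The second comparison, LH3-AL against GFP-AL, sets the LH3 virus against the GFP virus in drug-treated mice; it shares the GFP-AL libraries with the first, so the opposite signs of both are not independent. Of the 49 members 19 were called lower (38.8%), against 11.4% of all tested genes, and 1 was called higher (2.04%), against 17% of all. All 31 standard subunits lay below 0, with a median log2 fold change of -0.35 against 0.08 over all tested genes, and the same 31 did so under quantile normalization and median-of-ratios scaling. Of them 18 were called lower. A log2 fold change above 0 was seen in 7 of 49 members (14.3%), against 58.8% of all tested genes. In 22 members (44.9%) every LH3-AL library lay below every GFP-AL library, against 8.45% of all tested genes, and in 0 members was the reverse true, against 11%.

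Called members were found in both rings, the base and the lid, and 11.4% of all tested genes were called lower. In the constitutive beta ring 6 of 7 were called lower, Psmb2, Psmb3, Psmb4, Psmb5, Psmb6 and Psmb7, with a median log2 fold change of -0.47. In the alpha ring 2 of 7 were, Psma6 (-0.49 ± 0.14, adjusted p = 0.0156) and Psma7 (-0.49 ± 0.15, adjusted p = 0.0225), with a median of -0.28. In the base 4 of 9 were called lower: the ATPase genes Psmc1, Psmc3 and Psmc4 and the ubiquitin receptor Psmd4 (-0.46 ± 0.13, adjusted p = 0.0173), with a median of -0.27. Psmc1 (-0.35 ± 0.12, adjusted p = 0.0388) was at -0.14 (adjusted p = 0.212) under quantile normalization, and its call ended without any 1 of 8 of the 10 libraries, all but GFP-AL 1 and GFP-AL 5. That of Psmc3 (-0.34 ± 0.11, adjusted p = 0.0359) ended under quantile normalization (adjusted p = 0.0619) and without any 1 of 7 of the 10, all but GFP-AL 1, GFP-AL 5 and LH3-AL 5. Under quantile normalization 2 of 9 base genes were called lower. In the lid 6 of 8 were, Psmd3, Psmd6, Psmd8, Psmd12, Psmd13 and Psmd14, with a median of -0.36. Leaving out GFP-AL 3 or LH3-AL 4 ended the calls of Psma7, Psmb3 and Psmd13, with adjusted p between 0.0504 and 0.0596. Log2 fold changes ran from -0.57 to -0.11 in the core, from -0.46 to -0.16 in the base and from -0.47 to -0.26 in the lid, and differences between these groups of genes were not tested.

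Without the 3 libraries that stand apart 19 members were again called lower, 18 of them standard subunits, and 1 higher, with 9.55% of all tested genes lower and a median of -0.30 for the standard subunits. Leaving out LH3-AL 4 gave 9 members lower, with 8.47% of all tested genes lower, and leaving out GFP-AL 3 gave 11, with 9.45% of all. Under median-of-ratios scaling 25 were lower and 1 higher, with 13.6% of all tested genes higher and 14.5% lower.

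Psmb4 had the largest fall, with a log2 fold change of -0.57 ± 0.15 (adjusted p = 0.0107). Its LH3-AL libraries, at 19.8 to 23.7 FPKM, all lay below its GFP-AL libraries, at 28.6 to 40.8 FPKM. For Psmd8, whose values are given above, the log2 fold change was -0.47 ± 0.12 (adjusted p = 0.0108); for Psmd3 it was -0.40 ± 0.11 (adjusted p = 0.0135), and for Psmd14 -0.33 ± 0.09 (adjusted p = 0.0196). In these 3 lid genes too all LH3-AL libraries lay below all GFP-AL libraries. Of these calls only that of Psmd14 was lost to a single library, with an adjusted p of 0.0501 without LH3-AL 4.

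Psmd6, a lid subunit, had 11.3, 12.1, 11.2, 10.1 and 11.7 FPKM in LH3-AL, 14.9, 18.3, 16.9, 13.5 and 15.01 FPKM in GFP-AL and 12.8, 16.8, 12.5, 11.9 and 11.2 FPKM in GFP-Veh libraries. The LH3-AL libraries all lay below the GFP-AL ones, and GFP-Veh 2 was the only GFP-Veh library within the GFP-AL range. The log2 fold change of LH3-AL against GFP-AL was -0.44 ± 0.11 (adjusted p = 0.00769), the smallest adjusted p among the standard subunits; that of GFP-AL against GFP-Veh was 0.26 ± 0.11 (adjusted p = 0.0834).

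Psmc4, an ATPase of the base, had 19.8, 19.8, 19.98, 19.7 and 18.6 FPKM in LH3-AL, 26.1, 32.8, 26.8, 24.7 and 26.2 FPKM in GFP-AL and 19.7, 31.01, 20.7, 20.6 and 18.9 FPKM in GFP-Veh libraries. The LH3-AL values were tightly grouped and below all GFP-AL values, and the GFP-Veh libraries other than GFP-Veh 2 lay near the LH3-AL ones. It fell in LH3-AL against GFP-AL, with a log2 fold change of -0.45 ± 0.12 (adjusted p = 0.0116).

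Psmd12, another lid subunit, had 17.1, 16.3, 16.9, 16.5 and 16.7 FPKM in LH3-AL, 20.3, 24.1, 18.4, 20.98 and 21.2 FPKM in GFP-AL and 17.1, 23.4, 19.4, 16.4 and 17.7 FPKM in GFP-Veh libraries. Its LH3-AL libraries lay below all GFP-AL libraries and at or near the lower end of the GFP-Veh range. The log2 fold change was -0.31 ± 0.10 (adjusted p = 0.0271) in LH3-AL against GFP-AL, with an adjusted p of 0.0604 without GFP-AL 2, 0.0537 without LH3-AL 2 and 0.0568 without LH3-AL 4.

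Outside the particle itself 1 gene passed, the chaperone Psmd9 (-0.32 ± 0.10, adjusted p = 0.0308); it did not without the 3 libraries that stand apart (-0.19, adjusted p = 0.101). Leaving out any 1 of GFP-AL 2, GFP-AL 3, LH3-AL 2, LH3-AL 3 or LH3-AL 4 put its adjusted p between 0.0503 and 0.0744. Psmg2 had a log2 fold change of 0.26 ± 0.15 (adjusted p = 0.185) and Psme3 one of -0.17 ± 0.10 (adjusted p = 0.209), neither past the test. Psma8, a testis form of an alpha subunit, averaged 3.17 ± 0.484 FPKM in LH3-AL, 2.63 ± 0.835 FPKM in GFP-AL and 3.66 ± 0.627 FPKM in GFP-Veh libraries (SD, n = 5 each) and passed in neither comparison.

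In the third comparison, LH3-AL against GFP-Veh, which shares its libraries with both others, virus and drugs differ together. By limma 0 of 49 members were called higher and 0 lower at an adjusted p under 0.05, against 0.145% and 0.375% of all tested genes. At an unadjusted p under 0.05 there were 0 higher and 2 lower members, Psmb10 and Psmg4, against 3.73% and 5.29% of all tested genes, and with array weights these 2 were called. The standard subunits had a median log2 fold change of -0.11, against -0.01 over all tested genes, with 29 of 31 below 0; of all 49 members 6 lay above 0 (12.2%), against 46.8% of all tested genes. No member had LH3-AL libraries all above or all below the GFP-Veh libraries, which 2.06% and 2.61% of all tested genes did. Without GFP-Veh 2 the median was -0.02, with 17 of 31 below 0.

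Psmb10 had a log2 fold change of -0.42 ± 0.18 (adjusted p = 0.491) in LH3-AL against GFP-Veh, with a 95% interval of -0.81 to -0.04, and its LH3-AL libraries spanned 22.1 to 29.0 FPKM against 27.6 to 61.8 FPKM in GFP-Veh. Psmg4, an alpha ring chaperone that works with Psmg3, had 6.605, 5.79, 4.45, 3.19 and 4.96 FPKM in LH3-AL, 5.87, 7.398, 7.83, 5.97 and 6.198 FPKM in GFP-AL and 5.44, 8.84, 6.39, 6.404 and 6.34 FPKM in GFP-Veh libraries. LH3-AL 1 lay among the other groups while LH3-AL 3, 4 and 5 lay below both. Its log2 fold change was -0.37 ± 0.15 (adjusted p = 0.469) in LH3-AL against GFP-Veh and -0.37 ± 0.15 (adjusted p = 0.0761) in LH3-AL against GFP-AL.

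Psmb9 had a log2 fold change of -0.23 ± 0.14 (adjusted p = 0.667) in LH3-AL against GFP-Veh, with a 95% interval of -0.52 to 0.07. The remaining members named for their small p, Psme3 (0.19 ± 0.10, adjusted p = 0.611), Psmd6 (-0.19 ± 0.11, adjusted p = 0.648), Psmd12 (-0.15 ± 0.10, adjusted p = 0.688) and Psmg2 (-0.23 ± 0.15, adjusted p = 0.697), did not pass.

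The plot of gene group medians by library shows how far these results rest on each library. The median deviation of the 31 standard subunits from their mean over all libraries lay between -0.21 and -0.09 in LH3-AL libraries and between 0.08 and 0.37 in GFP-AL libraries. In GFP-Veh libraries it was -0.25 to -0.11, except in GFP-Veh 2, where it was 0.38. Thus no LH3-AL library reached any GFP-AL library, while GFP-Veh 2 exceeded all of GFP-AL. The 5 immunoproteasome and PA28 genes had medians of -0.25 to 0.07 in LH3-AL libraries, -0.31 to 0.14 in GFP-AL libraries and -0.08 to 0.74 in GFP-Veh libraries.

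The standard subunits were also set beside genes of like exon length, since short genes were raised in the libraries that stand apart. In GFP-AL against GFP-Veh the 5 standard subunits with up to 1500 bases of exon had a median log2 fold change of 0.21, against 0.06 over all tested genes of that length. The 13 with more, up to 3000 bases, had 0.26 against -0.02, the next 10, up to 5000 bases, had 0.26 against -0.07, and the 3 with over 5000 bases had 0.22 against -0.16. The same classes had in LH3-AL against GFP-AL -0.36 against -0.13, -0.35 against -0.03, -0.38 against 0.06 and -0.26 against 0.17. With the length trend of each library removed, an alternative chosen after seeing the data, 18 members were higher and 3 lower in GFP-AL against GFP-Veh, and 2 were higher and 25 lower in LH3-AL against GFP-AL.

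**Figure D5:**
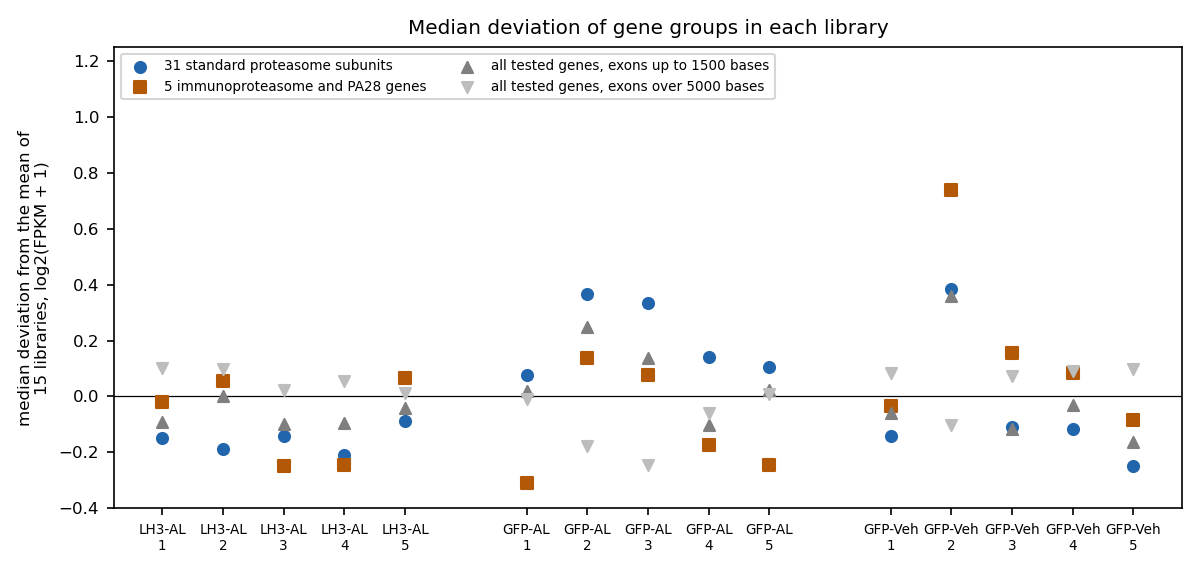
Median deviation of log2(FPKM + 1) from the mean of the 15 libraries, in each library, for the 31 standard subunits (blue circles), the 5 immunoproteasome and PA28 genes (orange squares), and all tested genes with exons up to 1500 bases (dark triangles) or over 5000 bases (light triangles). Blue circles lie below 0 in all LH3-AL libraries and above 0 in all GFP-AL libraries, and in GFP-Veh only library 2 lies above 0, at 0.38.

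Proteasome genes outside the name rule were tested as a list of 7. Of these 1 was higher in GFP-AL than in GFP-Veh, Adrm1, the other ubiquitin receptor of the base (0.35 ± 0.09, adjusted p = 0.0128), and 1 was lower, AI314180, the mouse Ecm29 gene, whose product binds proteasomes (-0.24 ± 0.08, adjusted p = 0.0347). The AI314180 value was -0.15 (adjusted p = 0.141) under median-of-ratios scaling, -0.18 (adjusted p = 0.0505) without the 3 libraries that stand apart and -0.04 (adjusted p = 0.666) with the length trend removed, and the call also ended under quantile normalization and without any 1 of GFP-AL 2, GFP-AL 3, GFP-Veh 1, GFP-Veh 3, GFP-Veh 4 or GFP-Veh 5. Lower in LH3-AL than in GFP-AL were 2, Adrm1 (-0.57 ± 0.09, adjusted p = 0.000735) and Pomp (-0.45 ± 0.14, adjusted p = 0.0275), the chaperone of beta ring assembly, and 0 were higher. Pomp was at -0.26 (adjusted p = 0.0706) without the 3 libraries that stand apart, and leaving out GFP-AL 2, GFP-AL 3, LH3-AL 1, LH3-AL 2 or LH3-AL 4 ended its call too. In GFP-AL against GFP-Veh 10.8% of all tested genes were called higher and 17.7% lower, so the list's counts there are near the background. In LH3-AL against GFP-AL 11.4% of all tested genes were called lower.

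Of 10 regulators of proteasome genes, 2 were higher in GFP-AL than in GFP-Veh and 0 lower: Stat3 (1.03 ± 0.12, adjusted p = 3.79e-05), which carries cytokine signals, and Nfe2l2 (0.41 ± 0.10, adjusted p = 0.00612), the antioxidant factor Nrf2. In LH3-AL against GFP-AL 3 were lower and 0 higher, Stat3 (-0.996 ± 0.12, adjusted p = 8.65e-05), Nfe2l2 (-0.50 ± 0.10, adjusted p = 0.00233) and Zfand2a (-1.95 ± 0.56, adjusted p = 0.0195), a proteasome-binding protein induced by arsenite. Zfand2a was at -1.31 (adjusted p = 0.153) without the 3 libraries that stand apart, and its call also ended with array weights and without GFP-AL 3. Nfe2l1, the gene of Nrf1, had -0.09 ± 0.31 (adjusted p = 0.848) in GFP-AL against GFP-Veh and did not pass. The interferon factor Irf1 (-0.34 ± 0.14, adjusted p = 0.0772) did not pass there either, nor in LH3-AL against GFP-AL, where it had 0.34 ± 0.14 (adjusted p = 0.0783). Of all tested genes 10.8% were called higher in GFP-AL against GFP-Veh and 11.4% lower in LH3-AL against GFP-AL.

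Genes that supply or carry ubiquitin were tested as a further list of 14. In GFP-AL against GFP-Veh 4 were higher and 2 lower, among them Ubqln1 (-0.32 ± 0.08, adjusted p = 0.00708), a shuttle of ubiquitylated proteins, Nploc4 (0.35 ± 0.09, adjusted p = 0.00724) and Ufd1l (0.46 ± 0.13, adjusted p = 0.0148), which work with the unfolding ATPase Vcp, and Sqstm1 (0.28 ± 0.09, adjusted p = 0.0332), the p62 autophagy receptor, whose call ended without any 1 of GFP-AL 2, GFP-AL 3, GFP-AL 5, GFP-Veh 1, GFP-Veh 3, GFP-Veh 4 or GFP-Veh 5. Against GFP-AL, LH3-AL had 5 lower and 0 higher, among them Sqstm1 (-0.35 ± 0.09, adjusted p = 0.0128) and Nploc4 (-0.32 ± 0.09, adjusted p = 0.0146). The 2 lower of 14 in GFP-AL against GFP-Veh are near the 17.7% of all tested genes called lower there. Called higher there were 10.8% of all tested genes, and called lower in LH3-AL against GFP-AL 11.4%.

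Of 10 class I peptide loading genes, which receive the peptides the proteasome makes, 2 were lower and 0 higher in GFP-AL than in GFP-Veh, where 17.7% of all tested genes were lower, so that the count is near the background: Erap1 (-0.66 ± 0.13, adjusted p = 0.00156), which trims those peptides, and Calr (-0.49 ± 0.16, adjusted p = 0.0323), a chaperone of the loading complex, whose call ended under median-of-ratios scaling (adjusted p = 0.0723) and without any 1 of 7 of the 10 libraries, all but GFP-AL 2, GFP-AL 4 and GFP-Veh 3. Erap1 was the 1 gene higher in LH3-AL than in GFP-AL (0.57 ± 0.13, adjusted p = 0.00465) and H2-D1 (-0.42 ± 0.14, adjusted p = 0.0365), a class I heavy chain, the 1 gene lower. Of all tested genes 17% were higher there and 11.4% lower, so neither count exceeds the background. H2-D1 was at -0.11 (adjusted p = 0.445) under quantile normalization and at -0.28 (adjusted p = 0.121) without the 3 libraries that stand apart; no filter, the replicate block and the loss of any 1 of 7 of the 10 libraries, all but GFP-AL 1, GFP-AL 4 and LH3-AL 5, ended its call as well. The median log2 fold change of the list was -0.13 in GFP-AL against GFP-Veh and -0.00332 in LH3-AL against GFP-AL, against -0.09 and 0.08 over all tested genes. In LH3-AL against GFP-Veh none of the genes in these 4 lists passed the limma test.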

How the data were processed

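The deposited table gives 1 value per gene and library that the authors name FPKM, for 15 libraries; 5.99% of its values lie below 0 and none is exactly 0, so the authors altered the FPKM by a step that no label or header records, and the deposited values were treated as an FPKM-like score. Of the values below 0, 92.8% lay above -0.001 and the lowest was -0.465; all were set to 0. STAR 2.5.1b and the genome build mm8 are named in the submitters' processing notes, with no role given. The 2 further tables hold the authors' own log2 fold changes with a p-value and a q-value per gene, by an unstated test; the second is named for LH3-AL against GFP-Veh, but its signs match those of LH3-AL against GFP-AL in 100% of its genes, against 58.9% for the named comparison, and it holds no member.

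The 22557 rows were summed by symbol to 22526 genes (31 symbols were shared by several rows). Genes whose mean reached 1 FPKM were tested as log2(FPKM + 1), which understates changes of low genes, with limma 3.58.1 in R 4.3.3: 1 fit over all 3 groups, 12 residual degrees of freedom plus limma's moderation, and Benjamini-Hochberg adjustment over the 13082 genes of each comparison, called at 0.05. Errors on log2 fold changes are standard errors. The sources used here give no strand of counting, so reads of overlapping genes cannot be told apart. Whole-read steps fitted 43.4 to 65.8% of low values within 0.1 read, too few for a count test, and the depth given is an estimate; no intervals on counts can be had.

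Values in every library are given for the immunoproteasome and PA28 genes, their constitutive counterparts and the 5 other members with the smallest p in each comparison; called members of each gene group, and up to 4 called genes of each further list, are named; some genes of those lists are not reported here. Members and lists were chosen with earlier results of these data known. Exon lengths, overlaps and copies come from GENCODE M21 on GRCm38, not the authors' build (22419 rows matched), with blastn 2.17.0, Python 3.11.15 and pandas 2.3.3. The alternatives were a pseudocount of 0.1, no filter or a mean of 5 FPKM, quantile normalization, scaling by median ratios, a fit of 2 groups, the replicate number as a block, array weights, and libraries left out; the procedure was tested on simulated data.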

Additional observations from a re-analysis of the deposited data

Results flagged for a closer look

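In a group of 5 libraries, 30 of 147 member and group pairs had a highest or lowest library that stood further from its nearest neighbour than 0.71 of the whole range; chance flags about 1 in 20 groups, and the members share their libraries. GFP-Veh 2 accounted for 24. It was the highest GFP-Veh library for the alpha ring genes Psma1 (29.0 FPKM), Psma2 (91.4 FPKM), Psma4 (24.1 FPKM), Psma5 (12.3 FPKM), Psma6 (65.6 FPKM) and Psma7 (25.3 FPKM), and for the beta ring genes Psmb1 (106 FPKM) and Psmb4 (36.6 FPKM). So it was for the base genes Psmc2 (17.6 FPKM), Psmc3 (29.7 FPKM), Psmc4 (31.01 FPKM), Psmc5 (78.8 FPKM), Psmd2 (22.7 FPKM) and Psmd4 (15.4 FPKM), and for the lid genes Psmd6 (16.8 FPKM), Psmd7 (92.2 FPKM), Psmd8 (48.4 FPKM) and Psmd13 (11.4 FPKM). It was also highest for Psmb8 (19.1 FPKM), Psmb10 (61.8 FPKM), Psme1 (15.2 FPKM), Psme2 (7.72 FPKM) and the chaperone Psmg4 (8.84 FPKM), and lowest for the nuclear activator Psme3 (22.3 FPKM).

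The other 6 lay in 5 libraries. In LH3-AL, Psmb2 was highest in library 1 (35.7 FPKM), Psmb6 was highest in library 2 (21.8 FPKM) and Psmc4 was lowest in library 5 (18.6 FPKM). In GFP-AL, Psmb3 was highest in library 3 (34.4 FPKM), and Psmc4 (32.8 FPKM) and Psmc5 (75.8 FPKM) were highest in library 2.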

How the results depend on the processing

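The count of members higher in GFP-AL than in GFP-Veh was 9, and became 15 under median-of-ratios scaling, 3 in the fit of only the 2 groups, 21 with array weights, 24 without the 3 libraries that stand apart, 18 with the length trend removed and 20 with both of these last changes; with 1 library left out it ran from 3 to 26. The count of lower members there was 3 and ran from 1 to 4 with 1 library left out. For LH3-AL set against GFP-AL, the 1 higher member, Psmb9, became 0 with at least 5 FPKM (which removes Psmb9 from the test), quantile normalization, array weights, or the length trend and the 3 libraries removed together, and 2 with the length trend removed; the 19 lower members ran from 9 to 19 with 1 library left out. In LH3-AL against GFP-Veh limma array weights gave 2 lower members in place of 0. Both length alternatives were chosen after seeing the data. Shares of all tested genes are not reported here for these 2 alternatives, the 2-group fit, array weights or the replicate block. Their counts alone do not set the members apart from all genes. Same-numbered libraries did not deviate together (correlations from -0.26 to 0.29, 5 of 15 above 0.1), so the numbers do not pair them; with the replicate block 11 members were higher and 3 lower in GFP-AL against GFP-Veh, 2 higher and 20 lower in LH3-AL than in GFP-AL, and 0 in either direction when LH3-AL was set against GFP-Veh. Some log2 fold changes that were not called changed sign. Psme1 in GFP-AL against GFP-Veh ran from -0.17 to 0.0384 with 1 library left out, the highest without GFP-Veh 2. Psmb8 in LH3-AL against GFP-AL was 0.0282 without the 3 libraries and 0.00385 with the length trend removed as well. Psme2 there was 0.11 and 0.12 under the same changes, and -0.18 to 0.0307 with 1 library left out (0.0307 without GFP-AL 2). For LH3-AL set against GFP-Veh, Psmb6 was 0.00887 without the 3 libraries and -0.22 to 0.00887 with 1 left out, and Psmb7 was 0.0328 without the 3, 0.0409 with the length trend removed as well, and -0.14 to 0.0328 with 1 left out; both highest values were those without GFP-Veh 2. No called log2 fold change of a named gene changed sign under these alternatives; the cause of the lost calls was not tested. Depth, known only as an estimate, and 5 libraries a group limit what could be detected.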
